A study of Homo sapiens with 6 samples.

Results

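The genes studied here encode the core of AP-1, a family of transcription factors: the FOS family genes FOS, FOSB, FOSL1 and FOSL2, the JUN family genes JUN, JUNB and JUND, and the related stress gene ATF3. They were chosen by symbol and made up 8 of the 19940 gene rows. Transcripts were measured by total RNA sequencing in U2OS cells, a human osteosarcoma line, in 3 groups of 2 libraries each. Cells of all groups stably carried GFP-DCP1A, a fluorescent form of a decapping factor found in P-bodies, were kept under G418 selection and grew in McCoy's 5A medium with fetal bovine serum. In the rescue group, 4 h in medium with 300 mM sodium was followed by 4 h in isotonic medium. In the hypertonic group, cells received medium brought to 300 mM sodium with concentrated PBS for 4 h. In the isotonic group, the medium was mock supplemented and held 150 mM sodium. Rescue cells were collected after a longer schedule, without an isotonic group of matched length, so that rescue and the added time cannot be told apart.

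AP-1 proteins bind DNA as dimers through a leucine zipper: FOS proteins pair with JUN proteins, JUN proteins can also pair with each other, and ATF3 can pair with JUN proteins or with itself. FOS, FOSB, JUNB and ATF3 are known as immediate early or stress-induced genes, whose transcripts appear quickly after growth factors, stress or damage and decay quickly. Mitogen-activated kinases, among them p38 and JNK, which respond to osmotic stress, act upstream of AP-1, and the FOS and JUN proteins are classical regulators of bone cells and osteosarcoma.

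Promoter windows of 250 bases before the transcription start were sought in RefSeq (GRCh38.p14) for the AP-1 genes. An entry was found for 7 of the 8 genes, all but FOSL1. The windows of FOS (chr14:75278578-75278827, plus strand), FOSB (chr19:45467746-45467995, plus strand), JUNB (chr19:12791236-12791485, plus strand), JUN (chr1:58784048-58784297, minus strand) and the first of 2 windows of ATF3 (chr1:212565157-212565406, plus strand) are given 5′ to 3′ along the gene. Capitals mark matches to TGACGT (the core of a cyclic AMP response element), TGACATCA (its variant known from JUN), TATAAA and CCAAT on either strand.
FOS: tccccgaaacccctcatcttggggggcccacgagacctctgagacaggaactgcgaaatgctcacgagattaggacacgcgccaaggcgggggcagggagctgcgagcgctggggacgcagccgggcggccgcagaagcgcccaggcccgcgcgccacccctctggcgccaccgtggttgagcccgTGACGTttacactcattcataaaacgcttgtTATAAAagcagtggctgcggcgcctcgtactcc
FOSB: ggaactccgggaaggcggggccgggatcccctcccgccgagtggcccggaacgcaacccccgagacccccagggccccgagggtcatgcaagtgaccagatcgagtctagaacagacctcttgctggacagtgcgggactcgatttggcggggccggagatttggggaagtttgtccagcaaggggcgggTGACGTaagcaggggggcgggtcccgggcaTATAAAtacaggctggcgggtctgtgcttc
JUNB: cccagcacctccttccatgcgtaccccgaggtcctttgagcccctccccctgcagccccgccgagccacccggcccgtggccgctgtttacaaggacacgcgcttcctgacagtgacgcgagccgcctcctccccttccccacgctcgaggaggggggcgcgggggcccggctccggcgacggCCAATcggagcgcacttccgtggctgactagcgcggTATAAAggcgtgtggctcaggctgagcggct
JUN: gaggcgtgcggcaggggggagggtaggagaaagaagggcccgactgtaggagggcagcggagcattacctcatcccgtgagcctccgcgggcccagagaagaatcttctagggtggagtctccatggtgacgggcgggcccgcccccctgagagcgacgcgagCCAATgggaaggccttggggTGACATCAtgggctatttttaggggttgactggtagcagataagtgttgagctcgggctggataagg
ATF3: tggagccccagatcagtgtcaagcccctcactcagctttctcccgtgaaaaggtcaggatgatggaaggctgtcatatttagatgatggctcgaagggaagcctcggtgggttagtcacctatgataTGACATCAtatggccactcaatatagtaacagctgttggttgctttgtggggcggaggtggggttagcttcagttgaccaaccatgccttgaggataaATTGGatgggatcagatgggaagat

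FOS and FOSB, which had the widest range of levels, shared the order TGACGT and then TATAAA, with TGACGT starting 64 bases upstream in FOS and 60 bases upstream in FOSB, and TATAAA 33 bases upstream in FOS and 30 bases upstream in FOSB. TGACGT was found in 7.10% and TATAAA in 10.7% of the 35116 RefSeq windows of this length. JUNB held CCAAT 67 bases and TATAAA 31 bases upstream; CCAAT occurred in 32.0% of windows. JUN, the gene with the narrowest range, and ATF3, with a wide one, both held TGACATCA, starting 67 bases upstream in JUN and 123 bases upstream in ATF3, against 2.37% of all windows. TGACGT also occurred in FOSL2, 66 bases upstream, and in JUND, where it lay inside the full TGACGTCA 200 bases upstream and again, on the opposite strand, 87 bases upstream. The AP-1 site TGACTCA (4.20% of windows), the CArG box (1.16%) and the tonicity element (4.16%), searched on both strands, had no match in any of the windows of the 7 genes. These matches describe letters in a window, not binding. Sequence outside the windows was not searched, so any site further upstream, such as a CArG box of FOS, would have been missed.

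Total counts ranged from 90196278 to 105991428 per library, so that 3 counts correspond to 0.0283 to 0.0333 CPM (counts scaled by the library total), and the AP-1 genes had between 143 and 47531 counts in each library. The hypertonic and isotonic libraries were not alike within a label. Across 13155 genes averaging 5 CPM or more, the SD of the log2 ratio was 0.823 between hypertonic 1 and hypertonic 2 and 0.829 between isotonic 1 and isotonic 2, but 0.0783 between hypertonic 2 and isotonic 1 and 0.0977 between hypertonic 1 and isotonic 2; between rescue 1 and rescue 2 it was 0.0975. The labels were kept, values are given per library, and every direction refers to the library so labelled. Whether labels were exchanged between hypertonic and isotonic in 1 replicate number cannot be told from the files. Each direction between those labels, and each test on groups that use them, rests on the labels as given. Nothing in the labels gives the 2 libraries of a group separate cultures, so p-values measure only the spread between these libraries. In such bulk samples, fewer cells with a transcript and less of it per cell cannot be told apart.

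FOS and FOSB, whose proteins pair with JUN proteins and carry potent activation domains, were the AP-1 genes with the widest spread. FOS, at positions 75278774 to 75282230 of chromosome 14 in GENCODE 29 (GRCh38, plus strand), stood at 10.3 and 9.30 CPM in rescue 1 and rescue 2, at 33.8 CPM in hypertonic 1 but 3.34 CPM in hypertonic 2, and at 2.98 CPM in isotonic 1 but 34.1 CPM in isotonic 2. FOSB, on chromosome 19 from 45467995 to 45475179 (plus strand), stood at 8.77 and 8.50 CPM in rescue 1 and rescue 2, at 152.7 and 1.48 CPM in hypertonic 1 and hypertonic 2, and at 1.36 and 155.9 CPM in isotonic 1 and isotonic 2. Both genes were thus high in hypertonic 1 and isotonic 2, lowest in hypertonic 2 and isotonic 1, and intermediate in both rescue libraries; the hypertonic and isotonic ranges overlapped, and the rescue values lay inside both. The highest library exceeded the lowest 11.5-fold for FOS and 115-fold for FOSB.

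FOSL1, which encodes FRA1, a FOS protein without the strong activation domain of FOS, lies on chromosome 11 from 65892049 to 65900573 (minus strand). It stood at 43.7 and 41.6 CPM in rescue 1 and rescue 2, at 227 and 45.0 CPM in hypertonic 1 and hypertonic 2, and at 45.0 and 221 CPM in isotonic 1 and isotonic 2. It was high in the same libraries as FOS and FOSB, but both rescue values lay below every other library. Rescue lay below isotonic without overlap for 22.8% of all genes on CPM by library total, and below hypertonic for 22.8%. FOSL2, which encodes the related FRA2 and lies on chromosome 2 from 28392448 to 28417312 (plus strand), had 325 and 309 CPM in rescue 1 and rescue 2, 226 and 452 CPM in hypertonic 1 and hypertonic 2, and 451 and 221 CPM in isotonic 1 and isotonic 2. FOSL2 ran the other way from its 3 relatives: it was low where they were high, by 2.04-fold between the extremes.

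**Figure D1:**
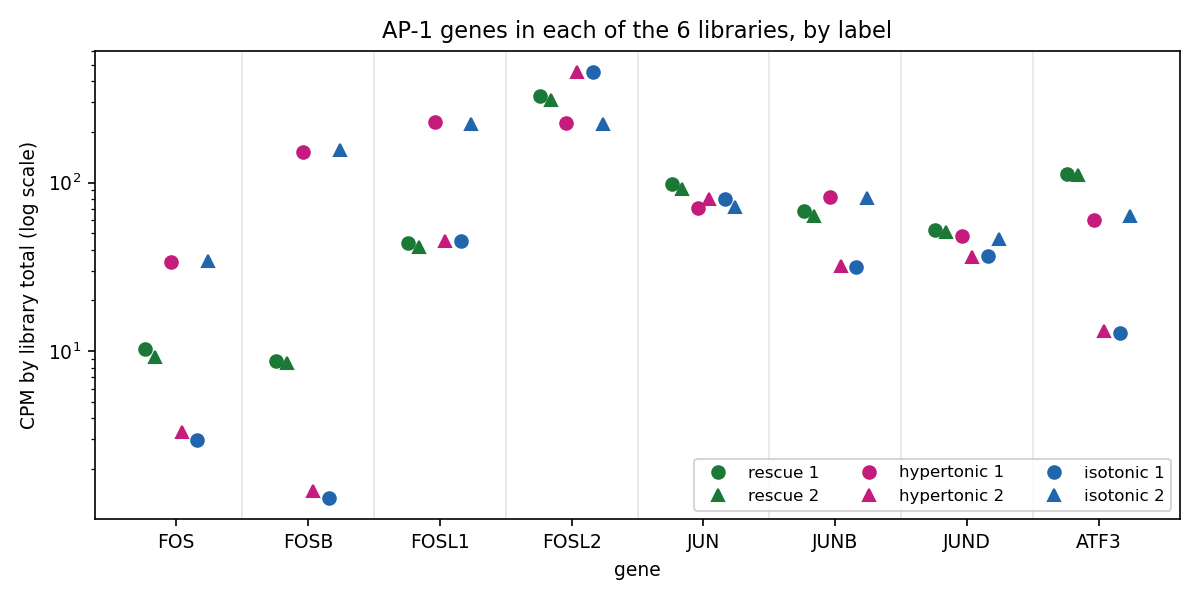
Levels of the 8 AP-1 genes in CPM by library total on a log axis, with 1 point per library coloured by label; circles are replicate 1 and triangles replicate 2. FOSB ran from 1.36 to 155.9 CPM and JUN from 71.1 to 97.5 CPM, and hypertonic 1 lay beside isotonic 2, and hypertonic 2 beside isotonic 1, for each gene.

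JUN, the partner through which FOS proteins bind DNA and on chromosome 1 from 58780788 to 58784327 (minus strand), had the narrowest range, with 97.5 and 91.8 CPM in rescue 1 and rescue 2, 71.1 and 80.5 CPM in hypertonic 1 and hypertonic 2, and 79.5 and 72.0 CPM in isotonic 1 and isotonic 2. Rescue lay above isotonic without overlap for 48.6% of all genes on this scale, and above hypertonic for 49.1%. For JUN, too, the 2 rescue libraries were the highest. On TMM-scaled CPM, which allows for differences in RNA composition, they were not: JUN stood at 85.4 and 79.6 in rescue 1 and rescue 2, at 80.4 and 82.1 in hypertonic 1 and hypertonic 2, and at 80.6 and 81.2 in isotonic 1 and isotonic 2. JUNB, a JUN protein with weaker activation that can restrain JUN, lies on chromosome 19 from 12791496 to 12793315 (plus strand). It had 68.3 and 63.8 CPM in rescue 1 and rescue 2, 81.7 and 32.0 CPM in hypertonic 1 and hypertonic 2, and 31.8 and 80.9 CPM in isotonic 1 and isotonic 2. JUNB was high in the same hypertonic and isotonic libraries as FOS, with rescue nearer to the high pair. JUND, the JUN gene known for steady expression, lies on chromosome 19 from 18279760 to 18281622 (minus strand). It had 52.6 and 50.6 CPM in rescue 1 and rescue 2, 48.1 and 36.0 CPM in hypertonic 1 and hypertonic 2, and 36.9 and 46.1 CPM in isotonic 1 and isotonic 2. Its extremes differed 1.46-fold, against 1.37-fold for JUN and 2.57-fold for JUNB.

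ATF3, a stress-induced factor that as a homodimer represses many promoters, lies on chromosome 1 from 212565334 to 212620777 (plus strand). It had 112.7 and 110.8 CPM in rescue 1 and rescue 2, 59.7 and 13.1 CPM in hypertonic 1 and hypertonic 2, and 12.9 and 63.3 CPM in isotonic 1 and isotonic 2. ATF3 was high in the same hypertonic and isotonic libraries as FOS, but it was the one AP-1 gene whose rescue values lay above every other library on both scales. Such a position was common: on TMM-scaled CPM, rescue lay above isotonic without overlap for 36.3% of all genes, and above hypertonic for 36.7%. The share above all other libraries at once was not counted. ATF3 is a member of this common class. It averaged 111.7 ± 1.35 CPM in rescue, 36.4 ± 32.9 CPM in hypertonic and 38.1 ± 35.7 CPM in isotonic (SD, n = 2 each).

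The rows of FOSB and JUNB lie inside other genes, and the larger row moved with them. FOSB lies wholly within the span of ERCC1, a DNA repair gene on the opposite strand, with 0 shared exon bases in the annotation; the ERCC1 row stood at 114.8 and 108.9 CPM in rescue 1 and rescue 2, at 334 and 118.8 CPM in hypertonic 1 and hypertonic 2, and at 118.5 and 338 CPM in isotonic 1 and isotonic 2. With the FOSB value taken off, 106.0 and 100.4, 181.5 and 117.3, and 117.1 and 181.8 CPM were left in those libraries, so the high pair remained high. JUNB lies wholly within the span of HOOK2, a gene for a microtubule linker on the opposite strand, and shares 259 exon bases with it; the HOOK2 row ran from 103.9 to 152.8 CPM over the 6 libraries, and after taking off JUNB from 65.1 to 74.8 CPM. How strand was treated in counting is not given in the sources used here, so reads of these overlapping genes may not be told apart. FOSL2 overlaps an antisense gene, FLJ31356, over 8.95% of its span, and a short intronic transcript.

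**Figure D2:**
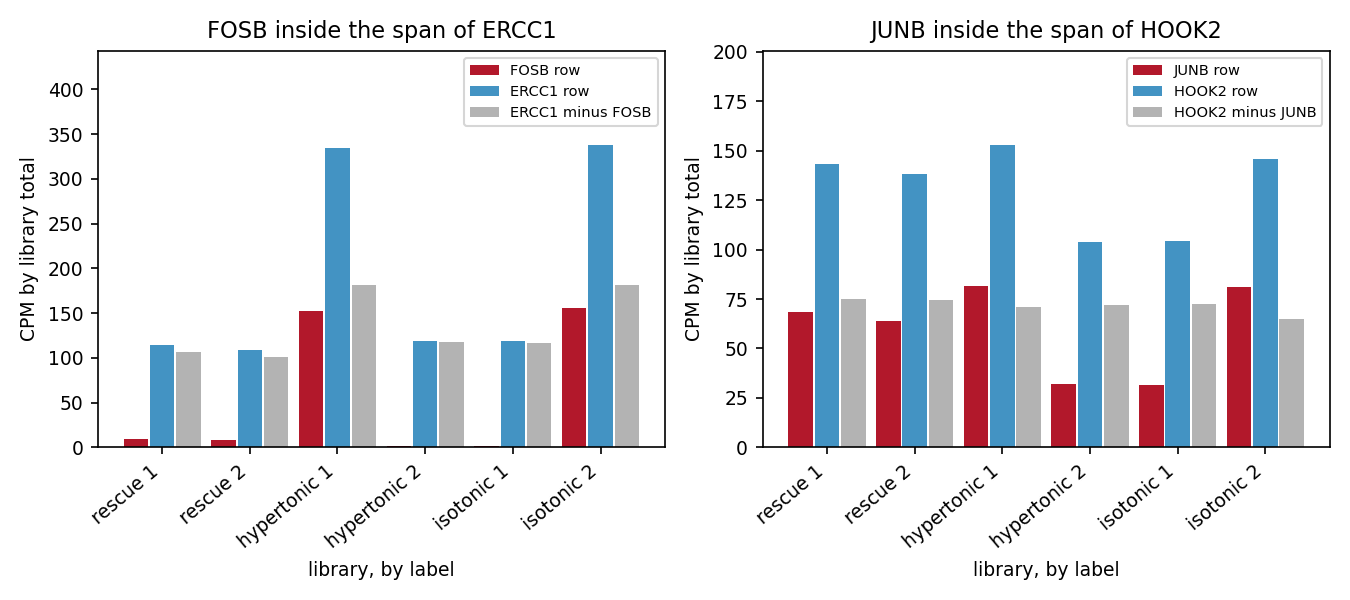
CPM by library total of FOSB and of the ERCC1 row that encloses it (left), and of JUNB and the HOOK2 row that encloses it (right), with the difference in grey, for each of the 6 libraries by label. After subtraction HOOK2 lay between 65.1 and 74.8 CPM in each library, whereas ERCC1 still had 181.5 CPM in hypertonic 1, had 181.8 CPM in isotonic 2, and had 100.4 to 117.3 CPM in the others.

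The make-up of the AP-1 transcripts differed between libraries. Per kb of annotated exons, the 8 genes summed to 194.6 and 185.2 CPM per kb in rescue 1 and rescue 2, to 295.5 and 151.2 in hypertonic 1 and hypertonic 2, and to 151.0 and 291.9 in isotonic 1 and isotonic 2. In rescue 1, FOSL2 led with 23.4% of the sum, followed by JUNB with 19.3%. In hypertonic 1, FOSL1 led with 40.7% and in hypertonic 2, FOSL2 with 41.8%; in isotonic 1, FOSL2 led with 41.8% and in isotonic 2, FOSL1 with 40.1%. ATF3 made up 14.3% in rescue 1 and 14.8% in rescue 2, against 2.11% to 5.37% in the other libraries, whereas FOSB reached 9.30% in hypertonic 1 and 9.62% in isotonic 2 and was under 1% elsewhere. Within rescue, the levels per kb ran in the order FOSL2, JUNB, then JUND, ATF3 and JUN, whose ranges overlapped between 25.9 and 28.2 CPM per kb, then FOSL1, FOS and FOSB. These shares and this order hold for annotated exons, and whether reads in introns were counted is not given, so the length that applies is unsettled. Per kb of gene span, JUNB led in both rescue libraries, hypertonic 1 and isotonic 2, and JUN led in hypertonic 2 and isotonic 1. On that length JUNB stood at 37.5 and FOSL2 at 13.1 CPM per kb in rescue 1, and ATF3 made up 1.73% of the sum in rescue 1 and 1.79% in rescue 2.

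**Figure D3:**
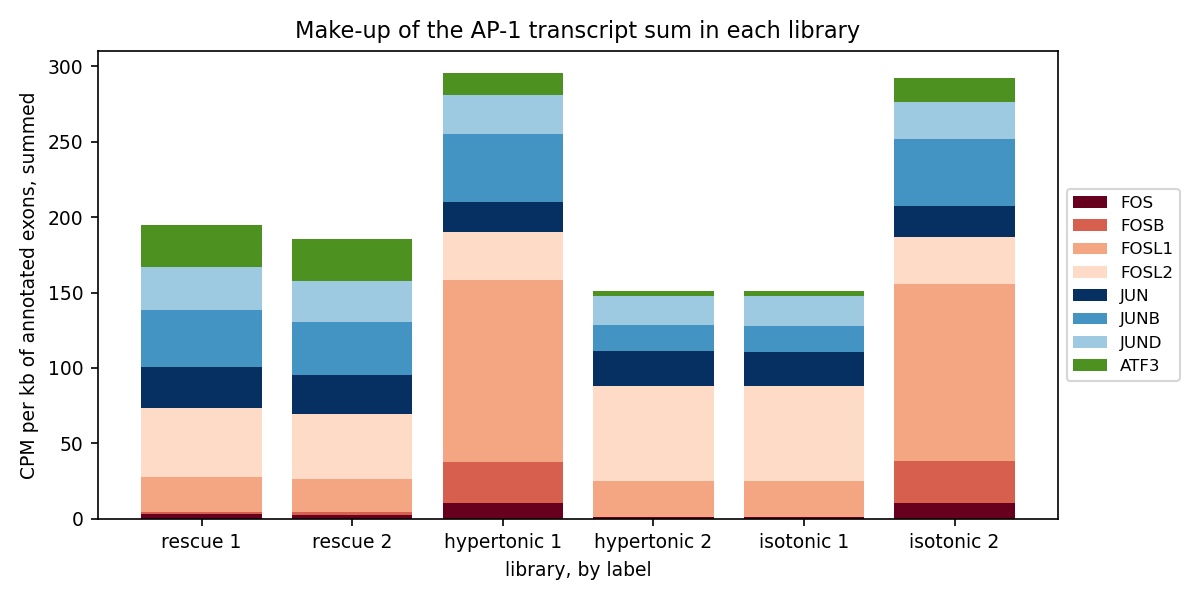
Summed level of the 8 AP-1 genes in CPM per kb of annotated exons, stacked by gene, for each library by label. FOSL1 was the largest layer in hypertonic 1 and isotonic 2 (40.7% and 40.1%) and FOSL2 in the 4 other libraries, and the ATF3 layer was widest in rescue 1 and rescue 2 (14.3% and 14.8%).

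The hypertonic group was set against the isotonic group to see how 4 h of raised sodium affected AP-1 transcripts. None of the 8 genes passed edgeR's quasi-likelihood test at a Benjamini-Hochberg adjusted p under 0.05, where 0.0% of the 18208 genes tested passed; at an unadjusted p under 0.05 the counts were 0 of 8 AP-1 genes and 52 genes in all, and DESeq2 called 1 gene in all (0.00549%), lower, and 0 of the 8. The groups overlapped for each of the 8 on both scales, against 2.59% of all genes higher without overlap and 3.05% lower on CPM by library total, and 3.09% and 2.74% on TMM-scaled CPM. The log2 fold change of hypertonic over isotonic was 0.00 ± 1.53 for FOS, -0.02 ± 2.51 for FOSB and 0.01 ± 0.10 for JUN. These SE use the spread pooled over all 6 libraries, with 2 libraries per group. The wide errors of FOS and FOSB reflect the gap between libraries of one label given above, and the median over the 8 genes was 0.01, against 0.00 over all genes.

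Within each replicate number the libraries differed widely, and in opposite directions. In number 1, FOSB was 112-fold, FOS 11.3-fold, FOSL1 5.05-fold, ATF3 4.63-fold and JUNB 2.57-fold higher in the library labelled hypertonic, on CPM by library total. In number 2, FOSB was 105-fold, FOS 10.2-fold, FOSL1 4.92-fold, ATF3 4.82-fold and JUNB 2.53-fold lower in the library labelled hypertonic. FOSL2 was 1.99-fold lower in number 1 and 2.04-fold higher in number 2. Thus 5 of 8 AP-1 genes were at least 2-fold higher and 0 lower in number 1, against 10.0% and 12.6% of all genes, and 1 was higher and 5 were lower in number 2, against 12.0% and 10.4%. JUN and JUND stayed under 2-fold in both.

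The fit that used number 1 alone for these groups, in which the lone libraries were assumed to vary as the rescue pair did, called 64.2% of 18451 genes (31.6% higher and 32.6% lower) and 7 of the 8 AP-1 genes, 6 higher and 1 lower. FOSB had a log2 fold change of 6.97 ± 0.13, FOS of 3.66 ± 0.13 and FOSL2 of -0.84 ± 0.09 (SE, 1 library each); JUN, at -0.00 ± 0.08, had an edgeR adjusted p of 0.981. The same fit for number 2 called 63.9% of 18440 genes (32.9% higher and 31.0% lower), and again 7 of the 8, now 1 higher and 6 lower. There FOSB had a log2 fold change of -6.86 ± 0.13, FOS of -3.49 ± 0.13 and FOSL2 of 0.89 ± 0.09, and JUN had an adjusted p of 0.867. With most genes called, these counts say little beyond the direction, which turned with the replicate number for each of the 7 genes.

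**Figure D4:**
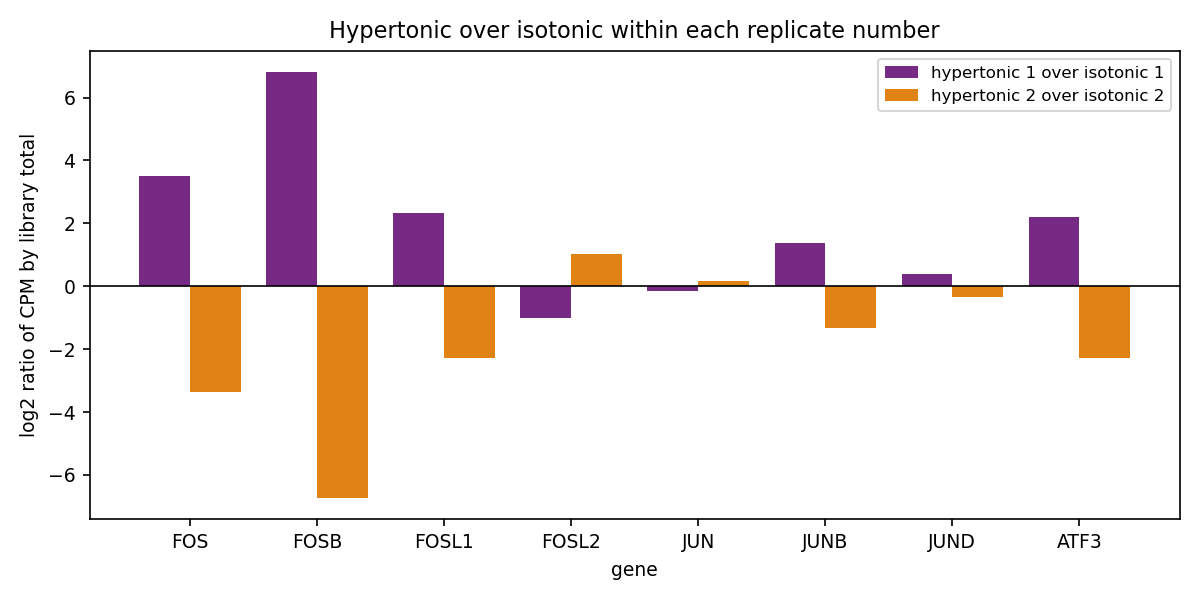
Log2 ratio of CPM by library total of each AP-1 gene, hypertonic over isotonic, in replicate number 1 and in replicate number 2; each bar compares 1 library with 1 library and has no error. Bars of the same gene point in opposite directions, from 6.81 against -6.72 for FOSB to -0.16 against 0.16 for JUN.

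Comparing rescue with isotonic asks how far AP-1 transcripts stood from the untreated state after the return to isotonic medium. None of the 8 genes passed, where 23.1% of all genes did (9.61% higher and 13.5% lower). The log2 fold change of rescue over isotonic, with SE from the fit of all 6 libraries, was -3.55 ± 2.78 for FOSB (edgeR adjusted p = 0.409). By the same test it was -1.99 ± 1.15 for FOSL1 (adjusted p = 0.279) and -1.28 ± 1.55 for FOS (adjusted p = 0.594). ATF3 had 1.21 ± 1.09 (edgeR adjusted p = 0.473). FOSL2 had -0.35 ± 0.41 and JUN 0.03 ± 0.10, and the median over the 8 was -0.23, against -0.02 over all genes. JUNB had -0.10 ± 0.70 and JUND 0.01 ± 0.27. With library totals in place of TMM, JUNB stood at 0.23, while the median of all genes stood at 0.27. With libraries left out, the sign changed for FOS, FOSB, JUNB and JUND, and also for FOSL2 (-0.73 to 0.15) and JUN (-0.02 to 0.08). On CPM by library total, the rescue and isotonic ranges did not overlap for ATF3, JUN and JUND, higher in rescue, and for FOSL1, lower in rescue, against 48.6% of all genes higher and 22.8% lower; on TMM-scaled CPM they did not overlap for ATF3 and FOSL1 alone, against 36.3% and 35.0%.

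The comparison of rescue with hypertonic asks what the return to isotonic medium did; it shares the rescue libraries with the one above. None of the 8 genes passed, where 23.6% of all genes did (9.86% higher and 13.8% lower). The log2 fold change of rescue over hypertonic was -3.53 ± 2.78 for FOSB (adjusted p = 0.410), -2.03 ± 1.15 for FOSL1 (adjusted p = 0.270), -1.28 ± 1.55 for FOS (adjusted p = 0.591) and 1.27 ± 1.09 for ATF3 (adjusted p = 0.451), by edgeR. FOSL2 had -0.38 ± 0.41, JUN 0.02 ± 0.10, JUNB -0.12 ± 0.70 and JUND -0.02 ± 0.27; under library totals JUNB stood at 0.22 and JUND at 0.30, while the median of all genes stood at 0.28. The groups did not overlap for the same 4 genes on CPM by library total (49.1% of all genes higher and 22.8% lower) and for ATF3 and FOSL1 alone on TMM-scaled CPM (36.7% and 35.2%).

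Against single libraries, the rescue pair gave different answers. With number 1 alone in the isotonic and hypertonic groups, 79.1% of genes were called between rescue and isotonic, and FOS stood at 1.50, FOSB at 2.45, FOSL1 at -0.30 and ATF3 at 2.89 on the log2 scale; between rescue and hypertonic, with 81.4% called, FOS stood at -2.16, FOSB at -4.52, FOSL1 at -2.79 and ATF3 at 0.52. With number 2 alone, 80.8% of genes were called between rescue and isotonic, with FOS at -2.17, FOSB at -4.55, FOSL1 at -2.75 and ATF3 at 0.45; between rescue and hypertonic, with 79.1% called, FOS stood at 1.32, FOSB at 2.32, FOSL1 at -0.31 and ATF3 at 2.86. ATF3 was thus higher, and FOSL1 lower, in rescue in each of the 4 comparisons, while FOS and FOSB changed sign with the library they were set against. On CPM by library total, FOSL1 in rescue (43.7 and 41.6) lay only slightly below isotonic 1 (45.0) and hypertonic 2 (45.0). The 4 comparisons are not independent, since all use the same rescue libraries. In addition, isotonic 1 was close to hypertonic 2, and isotonic 2 to hypertonic 1. How many of all genes kept their sign in all 4 was not counted. FOSL2 was called only where rescue was set against isotonic 1 (-0.73) or hypertonic 2 (-0.74); it had adjusted p = 0.0728 against isotonic 2 and adjusted p = 0.193 against hypertonic 1. JUN was called in none of the 4.

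**Figure D5:**
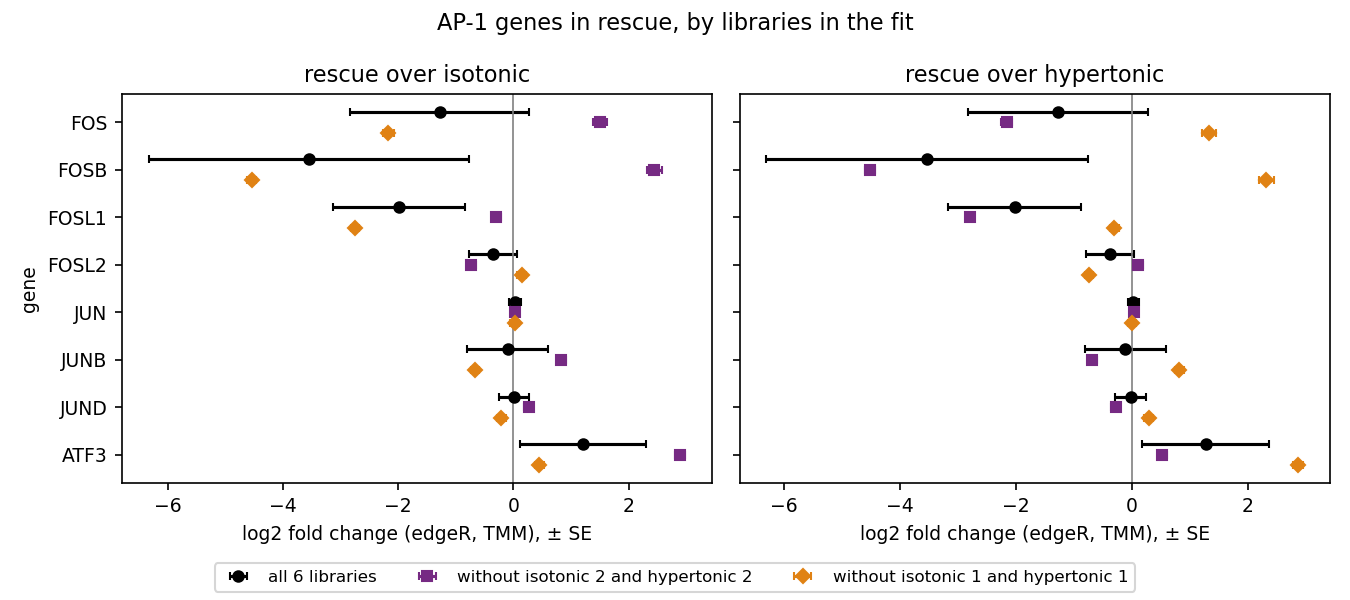
Log2 fold change (edgeR, TMM) of rescue over isotonic (left) and of rescue over hypertonic (right) for each AP-1 gene, with bars of 1 SE, from all 6 libraries and from the fits that kept only number 1 or only number 2 of the isotonic and hypertonic libraries. ATF3 lay right of 0 and FOSL1 left of 0 in each fit, while FOSB ran from -4.55 to 2.45 against isotonic and from -4.52 to 2.32 against hypertonic.

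Genes that act with AP-1 were counted in 5 lists. They held dimer partners, upstream kinases, factors that bind the FOS and JUN promoters, and target genes. The last held proteins that bind AU-rich elements, and with them the deadenylase PARN. Between hypertonic and isotonic 0 genes of each list passed. Between rescue and isotonic and between rescue and hypertonic the counts were alike. All calls of the lists below were lost in the edgeR test when either rescue library, or either library of the group set against it, was left out. In rescue against isotonic, the calls over all genes were lost in those fits as well. Folds and medians of the lists below are edgeR estimates on TMM scaling, whereas CPM are by library total. Over isotonic, the median log2 fold change of all genes in rescue was -0.02 with TMM and 0.27 with library totals. Falls in rescue are thus larger, and rises smaller, than the CPM beside them.

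Of the dimer partners, 14 of 15 were tested, and 4 rose and 1 fell in rescue against isotonic, where 9.61% of all genes rose and 13.5% fell (median log2 fold change -0.25, against -0.02 over all genes). MAF, a large zipper protein that binds extended AP-1 sites, rose 4.27-fold, with 177 and 174 CPM in rescue, 33.3 and 34.7 CPM in hypertonic and 35.4 and 31.7 CPM in isotonic (adjusted p = 0.00834, edgeR). DDIT3, the stress factor CHOP, rose 2.01-fold, and ATF2, a JUN partner that p38 and JNK phosphorylate, fell 1.63-fold; BATF2, with a mean under 5 CPM, also rose. The small partner MAFF, which lacks an activation domain, did not pass and was high in the same hypertonic and isotonic libraries as FOS, with 31.3 and 27.0 CPM in rescue, 126.1 and 12.2 CPM in hypertonic and 12.6 and 122.9 CPM in isotonic. MAFA, MAFK and ATF4 were likewise higher in hypertonic 1 than in isotonic 1 (log2 ratios of 2.47, 2.04 and 1.31) and lower in hypertonic 2 than in isotonic 2 (-2.38, -2.01 and -1.33).

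Of the 22 kinases and scaffold genes of the ERK, JNK, p38 and ERK5 cascades, 3 rose and 3 fell in rescue against isotonic, beside 9.61% and 13.5% of all genes (median log2 fold change -0.52, against -0.02 over all genes). MAP2K6, an activator of p38, rose 4.27-fold, with 13.2 and 15.1 CPM in rescue, 2.33 and 2.57 CPM in hypertonic and 2.73 and 2.66 CPM in isotonic. MAP3K5, which encodes ASK1, rose 3.43-fold, and MAPK10, which encodes JNK3, rose 3.34-fold. MAP3K20, which encodes ZAK, fell 2.02-fold. MAP2K3, another p38 activator, did not pass and had 112 and 106 CPM in rescue, 238 and 46.9 CPM in hypertonic and 47.7 and 232 CPM in isotonic, high in the same hypertonic and isotonic libraries as FOS. MAP2K5, the ERK5 activator, ran the other way, with a log2 ratio of hypertonic over isotonic of -1.67 in number 1 and 1.54 in number 2; MAP2K1 (0.79 and -0.77) and MAP3K1 (-0.71 and 0.71) differed less.

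Of 12 factors that bind the FOS and JUN promoters, 2 rose and 2 fell in rescue against isotonic, beside 9.61% and 13.5% of all genes (median log2 fold change -0.45, against -0.02 over all genes). MEF2C, which binds the JUN promoter, rose 4.33-fold, with 10.9 and 11.9 CPM in rescue, 2.33 and 2.11 CPM in hypertonic and 2.07 and 2.22 CPM in isotonic. CREM, a factor of the cyclic AMP response, rose 1.90-fold. ELK1, an ERK-activated partner of SRF at FOS, fell 1.55-fold, and the SRF coactivator MRTFA fell 1.46-fold. ELK3 did not pass and had 128 and 128 CPM in rescue, 284 and 124 CPM in hypertonic and 125 and 288 CPM in isotonic. ATF1 had log2 ratios of hypertonic over isotonic of 0.93 in number 1 and -1.03 in number 2, MEF2A of 0.73 and -0.78, and MRTFB of -0.91 and 0.93.

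Of the 20 target genes, 1 rose and 1 fell in rescue against isotonic, beside 9.61% and 13.5% of all genes (median log2 fold change 0.05, against -0.02 over all genes). LIF, an interleukin-6 family cytokine, fell 3.31-fold, with 35.3 and 36.5 CPM in rescue, 92.0 and 105 CPM in hypertonic and 105 and 89.1 CPM in isotonic (adjusted p = 0.00834, edgeR). The collagenase MMP1, with a mean under 5 CPM, rose. HBEGF, an EGF family growth factor, did not pass and had 16.8 and 15.9 CPM in rescue, 84.9 and 17.1 CPM in hypertonic and 15.1 and 82.7 CPM in isotonic. The metalloproteinase MMP3 did not pass either and had 84.0 and 79.8 CPM in rescue, 63.6 and 13.8 CPM in hypertonic and 13.8 and 70.6 CPM in isotonic. Its neighbour MMP13 followed the same order, with log2 ratios of hypertonic over isotonic of 2.24 in number 1 and -2.43 in number 2, whereas the chemokine CXCL8 had -1.89 and 1.96.

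Of the 9 listed genes, for proteins that bind AU-rich elements and for PARN, 0 rose and 5 fell in rescue against isotonic. Beside them, 9.61% of all genes rose and 13.5% fell (median log2 fold change -0.83, against -0.02 over all genes). HNRNPD, or AUF1, which binds such elements in FOS mRNA, fell 2.54-fold, with 162 and 162 CPM in rescue, 325 and 353 CPM in hypertonic and 350 and 323 CPM in isotonic. ELAVL1, the stabilizing protein HuR, fell 2.12-fold, TIAL1 2.03-fold and the decay factor KHSRP 1.84-fold; ZFP36L1 was the fifth. ZFP36, or tristetraprolin, which recruits deadenylases, did not pass and had 18.6 and 18.0 CPM in rescue, 24.0 and 3.81 CPM in hypertonic and 3.83 and 23.2 CPM in isotonic. ZFP36L2 had log2 ratios of hypertonic over isotonic of 1.45 in number 1 and -1.43 in number 2, PARN of -0.91 and 0.96, and TIA1 of -0.61 and 0.61. The AU-rich pentamer ATTTA occurred 5 times in the 3′ UTR of FOS, or 6.20 per kb, a density reached by 4.86% of genes, and at 1.39 (FOSB) to 4.00 (JUNB) per kb in the other 7, against a median of 1.75 per kb.

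The genes whose profile over the 6 libraries lay nearest to each AP-1 gene were sought among genes averaging 5 CPM or more, as the Euclidean distance between centred log2(CPM + 0.1) values. The nearest to FOS were PPP1R15A (0.24), IER5 (0.29) and RAI2 (0.33), and to FOSB PRDM1 (1.45), AGR2 (1.69) and ARC (1.75). The measure keeps the size of changes, and FOSB had the widest range of the AP-1 genes. PRDM1 still followed FOSB in shape, with a Pearson r of 0.9994 over the 6 libraries. The nearest to FOSL1 were HBEGF (0.16), ZNF711 and TLR4, to ATF3 BAMBI (0.15), NDRG1 and STC1, and to JUNB ZIM2 (0.048), RNF103 and PEG3. FOSL2 lay nearest to ATAT1 (0.044), CNTRL and MKKS, JUN to TMEM115 (0.044) and C17orf49, and JUND to AC011462.1 (0.056), ZCCHC14 and CHTOP. Between AP-1 genes, the shortest distance was that of JUN and JUND (0.53) and the longest that of FOSB and FOSL2 (7.74). Genes with narrow ranges lie close even where they move in opposite directions. JUN was lower in hypertonic 1 (71.1 CPM) than in isotonic 1 (79.5 CPM), while JUND was higher (48.1 against 36.9 CPM). With 3 pairs of near-identical libraries, such distances and correlations rest on few independent points.

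Of 8 bone lineage markers, COL1A1, SPARC and RUNX2 had means of at least 5 CPM, while COL1A2 and SP7 stayed under 1 CPM and IBSP had 0 counts in hypertonic 1 and isotonic 2. RUNX2 moved with the split, with 62.8 and 68.6 CPM in rescue, 17.2 and 76.1 CPM in hypertonic and 77.7 and 17.6 CPM in isotonic. Of the other cell types, the 4 endothelial markers summed to 31.4 to 32.3 CPM in rescue, 7.93 to 28.2 CPM in hypertonic and 8.24 to 28.97 CPM in isotonic. The endothelial marker PECAM1 split as FOS did, with 14.3 and 12.8 CPM in rescue, 23.9 and 3.48 CPM in hypertonic and 3.59 and 24.7 CPM in isotonic. In hypertonic 1 and isotonic 2, PECAM1 stood above RUNX2. The 4 epithelial markers summed to 16.2 to 17.4, 5.82 to 7.05 and 5.38 to 7.60 CPM in rescue, hypertonic and isotonic. The 4 leukocyte markers, of which CD3E was at 0 outside rescue, summed to 2.92 to 3.50, 0.589 to 2.95 and 0.437 to 2.83 CPM in those groups. The part of these markers in the AP-1 values was not tested.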

How the data were processed

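Total RNA was depleted of ribosomal RNA and the libraries underwent uridine digestion, per the labels' protocols. Reads passed through bcl2fastq, TopHat2, Bowtie2 and bedtools on GRCh38, per the submitters' processing notes; the versions, the annotation and how strand was treated were not given in the sources used here. Each table the authors deposited holds the raw counts of 1 library over 19940 rows (33 names on more than 1 row). Groups follow the titles. All 6 libraries entered one edgeR 4.0.16 quasi-likelihood fit (R 4.3.3, filterByExpr, TMM, robust) with a mean per group, tested two-sided on 18208 genes with Benjamini-Hochberg adjustment (threshold 0.05; 3 residual degrees of freedom). The SE of an edgeR log2 fold change is its absolute value over the root of the F statistic. It uses a spread pooled over all libraries in the fit. CPM were computed by library total, and intervals of 3 counts cover counting error only. Alternatives were other scalings, no filter, DESeq2 1.42.0, the replicate number as a block, the groups compared alone and libraries left out; the fits of a single number, the crossed pairs and TMM-scaled overlap were added after seeing the data. Same-numbered libraries were not paired: their deviations correlated at -0.988 (hypertonic with isotonic), -0.068 and 0.092 (rescue with each). Named genes were all AP-1 genes, their enclosing genes, up to 3 of the nearest profiles, and from each list up to 4 genes averaging 5 CPM or more that passed or, failing that, had the largest ratios in number 1; BATF2, MMP1 and ZFP36L1 were named after their values were seen. Members and lists were chosen with earlier results of these data known. The edgeR fit was also run on simulated counts to check the code. Those counts held no crossed library pairs, so that run does not show how the test performs here. Promoters came from RefSeq (GRCh38.p14), coordinates and 3′ UTRs from GENCODE 29.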

Additional observations from a re-analysis of the deposited data

How the results depend on the processing

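None of the 8 AP-1 genes passed in any of the 3 comparisons under any alternative planned for all 6 libraries or with 1 library left out, and 272 of 312 such values kept their direction. Having 2 libraries per label, crossed between the labels, limits every test; depth does not, with at least 143 counts per AP-1 gene and library. Between hypertonic and isotonic, no gene of any kind was called in the planned edgeR fits. Between rescue and isotonic, edgeR likewise called no gene under a replicate block or without a library of either group. Such fits do not set the 8 genes apart from the rest. The upper ends of the ranges of calls below came from the fits of a single number, which called most genes, as given above. The cause of the changes below was not tested.

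For hypertonic against isotonic, DESeq2 called 1 gene lower, and pairing hypertonic 1 with isotonic 2 and hypertonic 2 with isotonic 1 gave 6 genes higher and 15 lower. With 1 or 2 libraries left out, the number of genes higher ran from 0 to 6060 and lower from 0 to 6013, AP-1 genes called from 0 to 7, dimer partners from 0 to 10, kinases from 0 to 17, promoter factors from 0 to 8, targets from 0 to 17 and AU-rich binding proteins from 0 to 7. The log2 fold changes then ran from -3.49 to 3.66 for FOS, -6.86 to 6.97 for FOSB, -2.44 to 2.49 for FOSL1, -0.84 to 0.89 for FOSL2, -1.48 to 1.52 for JUNB, -0.50 to 0.54 for JUND and -2.41 to 2.37 for ATF3.

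For rescue against isotonic, a replicate block left 0 genes higher and 0 lower, and 0 called in each of the 5 lists. DESeq2 called 3280 genes higher and 3761 lower, or 7041 of the 18208 tested, beside 6 of the 20 targets. Upper quartile scaling gave 1404 genes lower and 2 promoter factors, and library totals gave 1095 genes lower, 3 kinases and 2 promoter factors; with only those groups in the fit 2 promoter factors were called. With libraries left out, genes higher ran from 0 to 7496, lower from 0 to 7402, AP-1 genes called from 0 to 7, dimer partners from 0 to 13, kinases from 0 to 22, promoter factors from 0 to 12, targets from 0 to 18 and AU-rich binding proteins from 0 to 9. The log2 fold changes ran from -2.17 to 1.50 for FOS, -4.55 to 2.45 for FOSB, -0.73 to 0.15 for FOSL2, -0.02 to 0.08 for JUN, -0.67 to 0.83 for JUNB and -0.21 to 0.26 for JUND.

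For rescue against hypertonic, a replicate block again left 0 genes higher and 0 lower and 0 called in each list. DESeq2 called 3317 genes higher and 3788 lower, or 7105 of the 18208 tested, beside 10 of the 22 kinases and 6 of the 20 targets. Upper quartile scaling gave 1448 genes lower and 2 promoter factors, and library totals 1098 genes lower, 3 kinases and 2 promoter factors. With libraries left out, genes higher ran from 0 to 7561, lower from 0 to 7466, AP-1 genes called from 0 to 7, dimer partners from 0 to 13, kinases from 0 to 22, promoter factors from 0 to 12, targets from 0 to 17 and AU-rich binding proteins from 0 to 9. The log2 fold changes ran from -2.16 to 1.32 for FOS, -4.52 to 2.32 for FOSB, -0.74 to 0.11 for FOSL2, -0.03 to 0.07 for JUN, -0.69 to 0.82 for JUNB and -0.28 to 0.29 for JUND.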
